A study of Mus musculus with 125 samples.

Results

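A set of 10 genes of bone morphogenetic protein (BMP) and transforming growth factor beta (TGF-beta) signalling was followed in mouse endothelial cells. They were the receptors and coreceptor Eng, Acvrl1, Bmpr2, Tgfbr1 and Tgfbr2, the inhibitory SMADs Smad6 and Smad7, and the targets Id1, Id3 and Tgfbi. They are named members of the pathway, 10 of the 27998 gene rows in the single-cell matrices, and were not chosen by a measured threshold. Their RNA was read as unique molecular identifiers (UMIs, which count captured transcripts) in 5 brain single-cell libraries, and their chromatin as the peak regions that overlapped each gene or lay within 50 kb of it in 66 ATAC-seq peak lists.

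In endothelium, BMP9 and BMP10 in the blood bind a complex of ALK1 (the product of Acvrl1), the type II receptor BMPR2 and the coreceptor endoglin (Eng), which phosphorylates SMAD1, SMAD5 and SMAD8. TGF-beta binds the type II receptor TGFBR2 and the type I receptor ALK5 (Tgfbr1), which phosphorylates SMAD2 and SMAD3. Both act through SMAD4 on target genes and are restrained by the inhibitory SMADs, and loss of ENG or ACVRL1 function causes hereditary haemorrhagic telangiectasia, a disease of malformed vessels.

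The ATAC-seq libraries were made from nuclei, 37 of endothelial cells and 29 of whole tissue, called input. The endothelial libraries comprised 12 of adult mice (2 each of brain, heart, kidney, liver, lung and retina), 14 of P6 pups (3 each of brain and retina, 2 each of the other 4 organs) and 11 of E12 embryos (3 of brain, 4 of heart, 4 of trunk). Input comprised 10 adult, 16 P6 and 3 E12 libraries. The single-cell libraries were 1 for each age. They came from whole brain of E9.5, E12.5 and E16.5 embryos and from cortex of mice at P8 and adult mice of 2 months. The age E16.5 is that of the label, while the name of the deposited file carries a later embryonic age. All mice of the ATAC-seq groups, input included, belonged to a tamoxifen-induced GFP reporter scheme in which the fluorescence was checked in vessels; the Cre driver and genotype are not given in the sources used here. Tamoxifen was given at E10.5 for the embryonic group, labelled E12 and collected at E12.5. The P6 group received it at P1 and P3, and its protocol places collection at P7. Adults of 2 months received it 7 days before collection. The cells for single-cell sequencing were selected with beads against CD31, an endothelial surface protein, after collagenase in the embryos and after a neural tissue dissociation kit in P8 and adult cortex. Whether replicates came from separate animals is not stated, so each p-value measures the spread between these libraries, which may be technical.

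Barcodes were taken as endothelial when they held at least 200 genes, at most 10% mitochondrial UMIs and at least 3 of 6 endothelial markers (Cdh5, Pecam1, Egfl7, Esam, Tie1, Kdr). Listed from the youngest age to the oldest, as in all lists of 5 values below, these numbered 5644, 6347, 3786, 4778 and 3154, with median depths between 4896 and 10469 UMIs and totals between 23250196 and 80364390 UMIs. All 6 gate markers were detected in every library, the lowest being Tie1 at P8 with 84.7 UMIs per 1000000 (CPM). Libraries shared up to 50 barcode sequences (E12.5 with E16.5). Signal of other cells was present in the endothelial barcodes: 7 erythroid markers summed to between 3240 and 16057 CPM, 6 mural cell markers to 52.9, 83.8, 177, 651 and 1566 CPM in order of age, and 7 immediate-early genes, which respond to dissociation, to 419, 903, 3446, 3411 and 4040 CPM. No doublet caller was run. Their part in the differences between ages was not tested. The ATAC-seq lists came from 10139100 to 59082500 tags each, per the file headers. Among them, adult endothelial lists were short (19464 to 47334 peaks) beside those of P6 (27160 to 92863) and E12 (39096 to 120456), and replicate 3 of the E12 heart endothelial lists stood apart with 71 peaks near the 10 genes against 192 to 202 in the other 3. That replicate was the E12 list of 39096 peaks. Starts of 3 of the 6 gate genes could be read. Tie1 had a peak in 37 of 37 endothelial and 20 of 29 input lists (adjusted p = 0.00856, exact test). Egfl7 and Kdr had one in 37 and 24 (adjusted p = 0.356 and 0.472, exact test). Starts of other cell types' markers were open in endothelial lists too. These were 22 to 30 lists for 3 astrocyte, 7 to 31 for 5 mural and 2 to 23 for 5 neural genes. Epithelial starts (3) had 1 to 15, mesenchymal (2) 0 to 14, microglia and macrophage (3) 0 to 7 and erythroid (6) 0 to 4.

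The genes span 7 chromosomes of the inferred build GRCm38 (mm10). The 250 bases before the start of 4 of them are shown for what the lists hold at their starts: at Eng the peak was commoner in endothelial lists, at Tgfbi it was absent from adult endothelium, and at Tgfbr1 it ranked high within its lists. Smad6 is shown as a start that, like those of Eng and Tgfbr1, had a peak in every endothelial list. Sequences are from RefSeq, GRCm38.p6, read in the direction of the gene, and capitals mark CAGAC or its complement GTCTG (a SMAD-binding element) and GGCGCC (a GC-rich SMAD site). Eng lies at chr2:32646345-32646594 (plus strand), Tgfbi at chr13:56609336-56609585 (plus), Tgfbr1 at chr4:47352972-47353221 (plus) and Smad6 at chr9:64022060-64022309 (minus).
Eng: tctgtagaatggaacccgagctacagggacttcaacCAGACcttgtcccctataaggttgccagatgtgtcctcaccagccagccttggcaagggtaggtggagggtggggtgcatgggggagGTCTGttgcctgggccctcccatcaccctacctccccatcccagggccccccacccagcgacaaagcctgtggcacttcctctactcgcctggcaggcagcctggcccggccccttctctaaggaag
Tgfbi: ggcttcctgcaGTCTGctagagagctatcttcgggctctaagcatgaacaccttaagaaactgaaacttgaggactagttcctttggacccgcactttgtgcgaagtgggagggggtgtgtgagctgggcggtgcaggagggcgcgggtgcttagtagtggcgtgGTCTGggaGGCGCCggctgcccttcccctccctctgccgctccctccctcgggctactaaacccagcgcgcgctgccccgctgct
Tgfbr1: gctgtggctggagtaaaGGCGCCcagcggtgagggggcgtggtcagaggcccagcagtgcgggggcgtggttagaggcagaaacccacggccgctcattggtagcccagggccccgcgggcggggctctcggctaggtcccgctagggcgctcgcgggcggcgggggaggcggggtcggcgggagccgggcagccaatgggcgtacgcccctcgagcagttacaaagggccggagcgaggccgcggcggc
Smad6: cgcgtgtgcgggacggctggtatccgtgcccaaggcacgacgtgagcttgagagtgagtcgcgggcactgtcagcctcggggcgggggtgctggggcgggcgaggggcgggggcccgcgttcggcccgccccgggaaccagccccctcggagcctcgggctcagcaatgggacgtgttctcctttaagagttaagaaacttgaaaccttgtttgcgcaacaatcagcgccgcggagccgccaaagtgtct

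The Eng window holds CAGAC at -214 and GTCTG at -127, counted from the annotated start. The Tgfbi window holds GTCTG at -239 and -85 and GGCGCC at -77, the Tgfbr1 window GGCGCC at -233, and the Smad6 window neither. RefSeq windows were found for 7 of the 10 genes, in 8 windows because Tgfbr1 has an additional start. CAGAC on either strand was present in 5 of these 8 windows and in 40.9% of 21262 windows of all protein-coding genes, and GGCGCC in 3 of 8 and in 12.3%. The longer BMP-response element GGCGNCNNNNNGTCT occurred in 0 of 8 windows and in 0.24% of all, and the ETS-type motif CCGGAAG in 0 of 8 and in 8.98%. All motifs were searched on both strands, and the last 4 letters of the longer element, GTCT, also begin GTCTG, so those motifs can overlap. A match is a description of the letters.

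Across the 5 brain libraries the RNA of Acvrl1, Bmpr2, Smad6, Smad7, Id1 and Id3 was highest in adult endothelial barcodes, Eng reached its highest level at E16.5, Tgfbr1 stayed in a narrow range, and Tgfbi was high in the E12.5 library alone. Levels are the summed UMIs of the endothelial barcodes as CPM, so they compare libraries for a gene and not genes with each other. Each age is 1 library, so age cannot be told apart from library, tissue (whole brain or cortex) and dissociation, and no test was possible. Exact Poisson intervals cover counting error only, and a 2-fold difference with at least 10 CPM in either library was used as a rule of size. The same genes were also read in barcodes without any of the 6 markers, which hold free RNA and other cells.

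**Figure D1:**
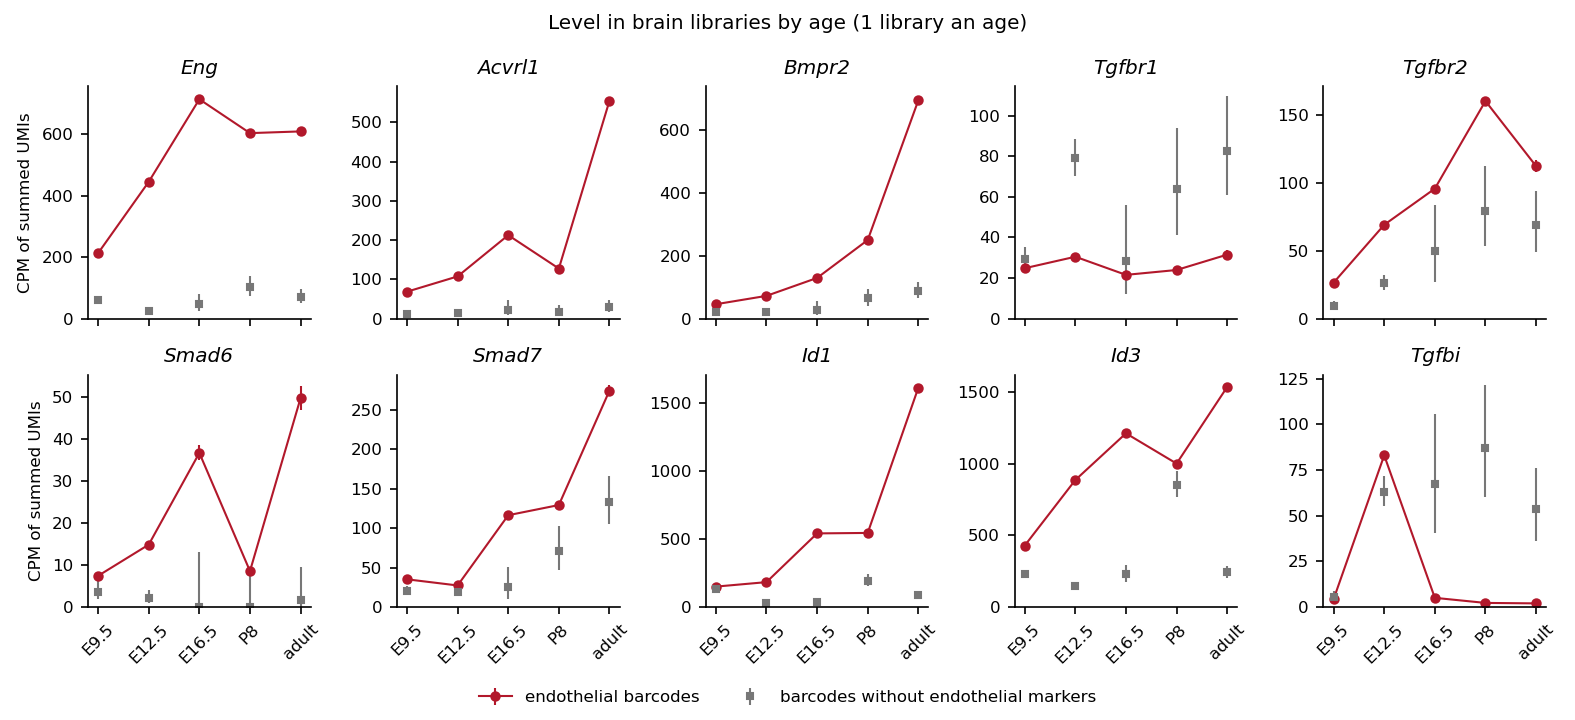
Level of each gene in 5 brain single-cell libraries. The vertical axis is CPM of summed UMIs, with a separate scale from 0 for each gene. Red circles are endothelial barcodes, grey squares barcodes with no endothelial marker, and bars 95% Poisson intervals. Id1 climbs to 1613 CPM in the adult, Tgfbi stands at 83.0 CPM at E12.5 and at 5.01 CPM or less at the other 4 ages.

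Eng, the endothelial coreceptor, was at 213, 445, 714, 604 and 609 CPM in order of age. It was lowest at E9.5 and differed little from E16.5 onward; the no-marker barcodes held 25.1 to 102 CPM. With each barcode thinned to 1000 UMIs, 18.8% of endothelial barcodes held an Eng UMI at E9.5 and 51.6% at E16.5, against 69.3% unthinned at E9.5. The 2 ages after E16.5 kept shares of 45.5 and 43.7%.

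Acvrl1, which encodes the BMP9 receptor ALK1, was at 68.3, 107, 212, 127 and 555 CPM in order of age. The adult library stood alone, 4.36-fold above P8. Bmpr2, the type II BMP receptor, was at 45.3, 71.9, 129, 249.3 and 693 CPM and so was higher at every later age, with adult 15.3-fold above E9.5. The Poisson intervals of neighbouring ages did not overlap for either gene.

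Tgfbr1, the TGF-beta type I receptor, was at 24.8, 30.5, 21.5, 23.9 and 31.5 CPM in endothelial barcodes. Its no-marker barcodes were at 29.1, 79.0, 28.4, 63.8 and 82.9 CPM, above the endothelial value in each library. At E9.5 (23.6 to 35.5 CPM) and at E16.5 (12.3 to 56.0 CPM, from 8 UMIs) the no-marker interval included the endothelial value. No-marker barcodes hold other cells as well as free RNA, so they are not a floor for endothelial barcodes. Endothelial Tgfbr1 was thus not shown to stand above other cells and free RNA. Tgfbr2, the type II TGF-beta receptor, was at 26.4, 69.1, 95.7, 160 and 112 CPM, highest at P8 and lowest at E9.5.

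Smad6, which preferentially inhibits BMP signalling, was at 7.41, 14.8, 36.6, 8.54 and 49.7 CPM. It was low at P8 between high values at E16.5 and in the adult, and the no-marker barcodes held 0 to 3.60 CPM. Smad7, which inhibits both branches, was at 35.1, 27.3, 116, 129 and 274 CPM, with the 2 earliest libraries low and the adult highest.

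Id1, a direct BMP target that blocks basic helix-loop-helix factors, was at 150, 183, 541, 545 and 1613 CPM. It formed 3 steps, with E9.5 and E12.5 low, E16.5 and P8 level within counting error of each other, and the adult highest. The level step depended on the limit on mitochondrial UMIs: with at most 5%, which 1252 of the 4778 P8 barcodes met, Id1 was at 547 CPM at E16.5 and 841 at P8, and still highest in the adult. At 1000 UMIs per barcode, 14.4, 14.3, 36.7, 38.1 and 73.4% of barcodes held an Id1 UMI. Id1 and immediate-early genes were both lowest at E9.5 and highest in the adult, and so were Acvrl1, Bmpr2, Smad6 and Id3. Id3, a related target, was at 429, 886, 1212, 1001 and 1536 CPM, with no-marker barcodes at 150 to 855 CPM.

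Tgfbi, a secreted matrix protein named for its induction by TGF-beta, was at 4.28, 83.0, 5.01, 2.23 and 1.98 CPM. Only E12.5 stood out in the endothelial barcodes, from 6667 UMIs there. In no-marker barcodes Tgfbi was at 5.40, 63.0, 67.5, 86.7 and 53.5 CPM, so from E16.5 onward the endothelial value was far under that of the other barcodes of the same library. After barcodes with at least 2 markers of another cell type were left out, the endothelial values were 3.73, 87.8, 5.35, 1.49 and 0.130 CPM, with E12.5 again the highest. Microglia and macrophage markers, 6 genes, summed to 43.5, 186, 21.1, 6.93 and 48.0 CPM in the endothelial barcodes and were also highest at E12.5; in the 470 E12.5 barcodes with at least 2 of them Tgfbi was at 69.7 CPM, beside 83.0 CPM in all endothelial barcodes, 86.3 CPM in the 355 with mural and 139 CPM in the 84 with mesenchymal markers.

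By the rule of size, 4 of the 10 genes were higher at E12.5 than at E9.5 (Eng 2.09-fold, Tgfbr2 2.62-fold, Id3 2.07-fold, Tgfbi 19.4-fold) and 0 lower, where 19.2% of all 8278 genes tested were at least 2-fold higher and 8.98% lower. Smad6, at 2.00-fold, lay just under the limit. Without haemoglobin, mitochondrial and ribosomal protein genes in the total, Eng (309 and 594 CPM) and Id3 (622 and 1183 CPM) fell short of 2-fold. Between E12.5 and E16.5, 3 of 10 were higher (Smad7 4.26-fold, Id1 2.96-fold, Smad6 2.47-fold), Tgfbi was lower (log2 ratio -4.05), and of all genes 8.16% were higher and 6.80% lower. Between E16.5 and P8, of 9 genes with enough counts, Smad6 alone was past the limit, lower by a log2 ratio of -2.10, with 7.68% of all genes lower and 11.1% higher. With at most 5% mitochondrial UMIs, Bmpr2 was also past it, higher at P8, with 129 and 326 CPM, and Smad6 was at 37.9 and 14.1 CPM.

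From P8 to adult, 5 of 9 genes were at least 2-fold higher (Smad6 5.82-fold, Acvrl1 4.36-fold, Id1 2.96-fold, Bmpr2 2.78-fold, Smad7 2.12-fold) and 0 lower, against 13.6% of all genes higher and 10.4% lower. Smad7 fell short of 2-fold with at most 5% mitochondrial UMIs (214 CPM at P8 and 317 in the adult) and without haemoglobin, mitochondrial and ribosomal protein genes (168 and 327 CPM). Between E9.5 and adult, 8 of 9 were higher, from Eng at 2.86-fold to Bmpr2 at 15.3-fold, and Tgfbr1 was at 1.27-fold; here 34.8% of all genes were higher and 21.5% lower. The median log2 ratio of the genes was 0.83, 0.76, 0.01 and 1.09 for the 4 successive steps, beside 0.17, -0.01, 0.03 and 0.07 for all genes tested.

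The other genes of the pathway, 41 ligands, receptors, signal carriers, targets and extracellular regulators, were counted by the same rule. At E12.5 against E9.5, 6 of 21 with enough counts were higher and 5 lower, where 19.2% and 8.98% of all genes were. Bambi, a decoy receptor, was at 15.2 and then 217 CPM. The ligand Bmp4 was at 23.8 and 4.37 CPM and the coreceptor Tgfbr3 at 21.3 and 6.73 CPM.

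At E16.5 against E12.5, 5 of 22 were higher and 1 lower, where 8.16% and 6.80% of all genes were. Lrg1, a secreted modulator of TGF-beta signalling, was at 2.87 and 10.2 CPM, the ligand Bmp2 at 5.08 and 13.6 CPM and Skil, an inhibitor of SMAD transcription, at 49.0 and 111 CPM. Lrrc32, which holds latent TGF-beta at the cell surface, was at 21.4 and 9.11 CPM. At P8 against E16.5, 1 of 21 was higher (Smad4, the common SMAD, at 29.8 and then 111 CPM) and 6 were lower, where 11.1% of all genes were higher and 7.68% lower. Among the lower, Lrg1 was at 10.2 and 1.27 CPM, the secreted follistatin-like gene Fstl1 at 83.8 and 34.8 CPM and Hey1, a target shared with Notch, at 131 and 58.0 CPM.

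In the adult against P8, 3 of 21 were higher and 4 lower, where 13.6% and 10.4% of all genes were, so the share of higher genes was near that of all genes. The BMP antagonist Nog was at 0.678 and 11.4 CPM and Lrrc32 at 7.49 and 22.5 CPM. Bambi was lower than at P8, at 130.2 and then 22.0 CPM. Over the whole span, 9 of 21 were higher in the adult than at E9.5 and 4 lower, near the 34.8% and 21.5% of all genes, the ligand Tgfb2 being at 15.8 and 124 CPM.

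Within each library, the level of Smad6 was higher in barcodes with arterial markers, which held 148 of 339, 663 of 1191, 674 of 1556, 201 of 516 and 747 of 1155 of its UMIs. Arterial-marker barcodes held at least 2 of Gkn3, Bmx, Sema3g, Gja4, Gja5 and Efnb2, and more of these than of the venous, capillary or tip markers. They numbered 1024, 647, 309, 211 and 459 in order of age. All remaining endothelial barcodes, ties included, counted as the others. At E9.5, 622 of the 1024 lay at the limit of 2 markers. Their median depths were 7302 to 12759 UMIs, so they were deeper than the medians of their libraries, and their part in the difference was not tested. The comparison was chosen after the data were seen.

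Smad6 was at 17.4, 75.8, 185, 59.5 and 125.5 CPM in arterial-marker barcodes, in order of age, and at 5.13, 7.37, 22.7, 5.52 and 23.6 CPM in the other endothelial barcodes. Its ratio was between 3.38 and 10.8 and so over 2-fold in 5 of 5 libraries, which held for 1.56% of 10146 genes. The low P8 value of Smad6 was present in both kinds of barcode. No other of the 10 genes was over 2-fold in all 5 libraries, and with at least 3 arterial markers the Smad6 ratio was 4.17 to 11.9.

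Higher at any size in 5 of 5 libraries were 6 of the 10 genes, beside 18.1% of all genes. Besides Smad6 they were Smad7 (1.26 to 3.37-fold), Id1 (1.15 to 3.35-fold), Acvrl1 (1.24 to 2.5-fold), Id3 (1.14 to 1.93-fold) and Tgfbr2 (1.06 to 1.5-fold). The smallest 2-sided p that 5 libraries allow is 0.0625 by an exact sign permutation. For each of these genes except Smad6 the adult ratio was the lowest of the 5, between 1.06 and 1.26. The counting interval of the adult Tgfbr2 ratio, 0.967 to 1.15, included 1.

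Eng was close to even (0.943 to 1.27), and Bmpr2 was higher in arterial-marker barcodes of the first 4 ages and lower in the adult, at 0.717. Tgfbi at E12.5 went the other way, with 21.3 CPM in arterial-marker barcodes, 78.4 in 1285 venous-marker barcodes and 146 in 924 barcodes with markers of tip cells, the leading cells of sprouts. Tmem100, an arterial BMP9 target from the pathway list, was 8.09 to 57.9-fold higher in arterial-marker barcodes.

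**Figure D2:**
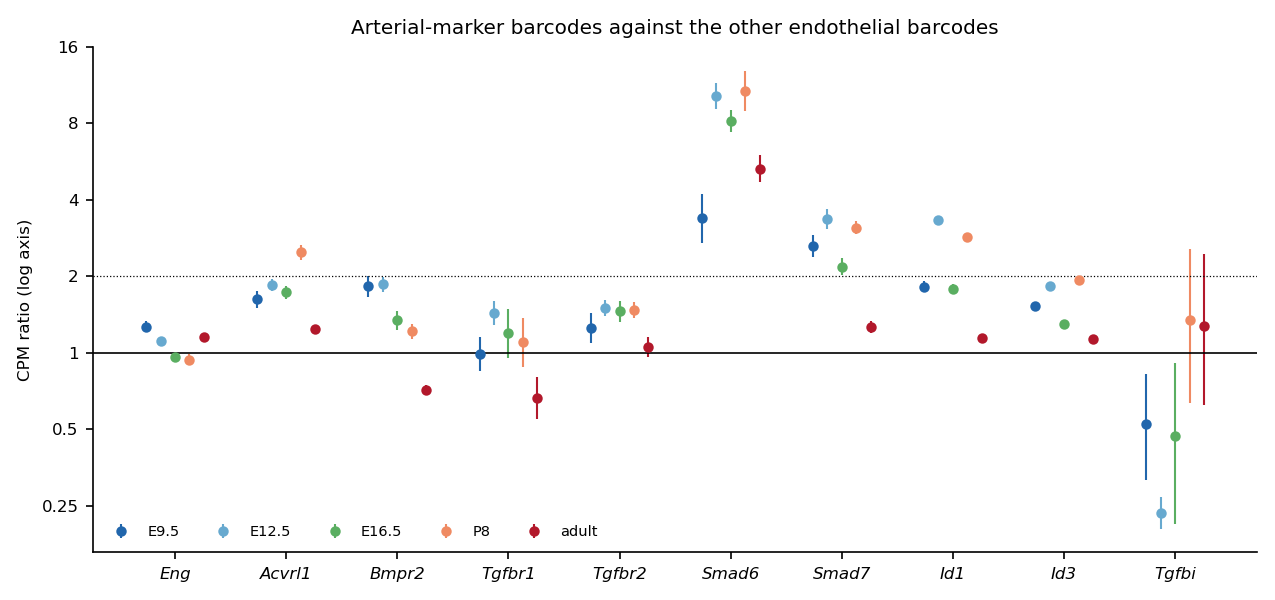
Ratio of CPM in arterial-marker barcodes to CPM in the other endothelial barcodes of the same library, on a log axis, for each of the 10 genes. Points are the 5 brain libraries and bars their counting intervals; the line marks a ratio of 1. The 5 Smad6 points lie between 3.38 and 10.8, above those of the other genes, and the Eng points lie around the line.

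Over 21 groups (marker classes within libraries, with at least 50 barcodes each) the Pearson correlation of Id1 on a log2 scale was highest with Nebl (0.974), Gpd2 (0.974) and Smad7 (0.964) among 8281 genes. Smad7 was thus the member whose pattern was nearest to Id1. Eng was nearest to 4930523C07Rik (0.974), Tspan12 (0.967) and Plat (0.966). These groups share libraries and depths, so the correlations are a description.

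The ATAC-seq lists answered whether open chromatin near these genes differed between endothelial nuclei and whole tissue. A region was counted in a library when its list held a peak over at least 100 bp of it, and libraries were compared only with others of the same organ and age by an exact conditional test, 2-sided, with Benjamini-Hochberg adjustment over all 248156 regions. Near the 10 genes lay 347 regions, from 24 at Id3 to 43 at Tgfbr2, and 77 of them overlapped another protein-coding gene. A peak says that the region was open in enough of the nuclei, and fewer such cells cannot be told apart from less openness per cell.

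At 0.05, 69 of the 347 regions were commoner in endothelial lists (19.9%), where 9.34% of all regions were, and 37 were rarer (10.7%), where 20.7% of all were. Bmpr2 (11 higher, 2 lower), Eng (13 and 6), Tgfbr2 (11 and 5) and Acvrl1 (8 and 3) had most of the higher regions, and Tgfbr1 had 1 higher and 2 lower. Smad6 had 7 and 4, Tgfbi 6 and 4, Smad7 6 and 7, and Id1 and Id3 each 3 and 2. When every list was shortened to its 19464 strongest peaks, 35 were higher (2.82% of all regions) and 2 lower (0.891%), and 28 of the 106 calls were among them.

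**Figure D3:**
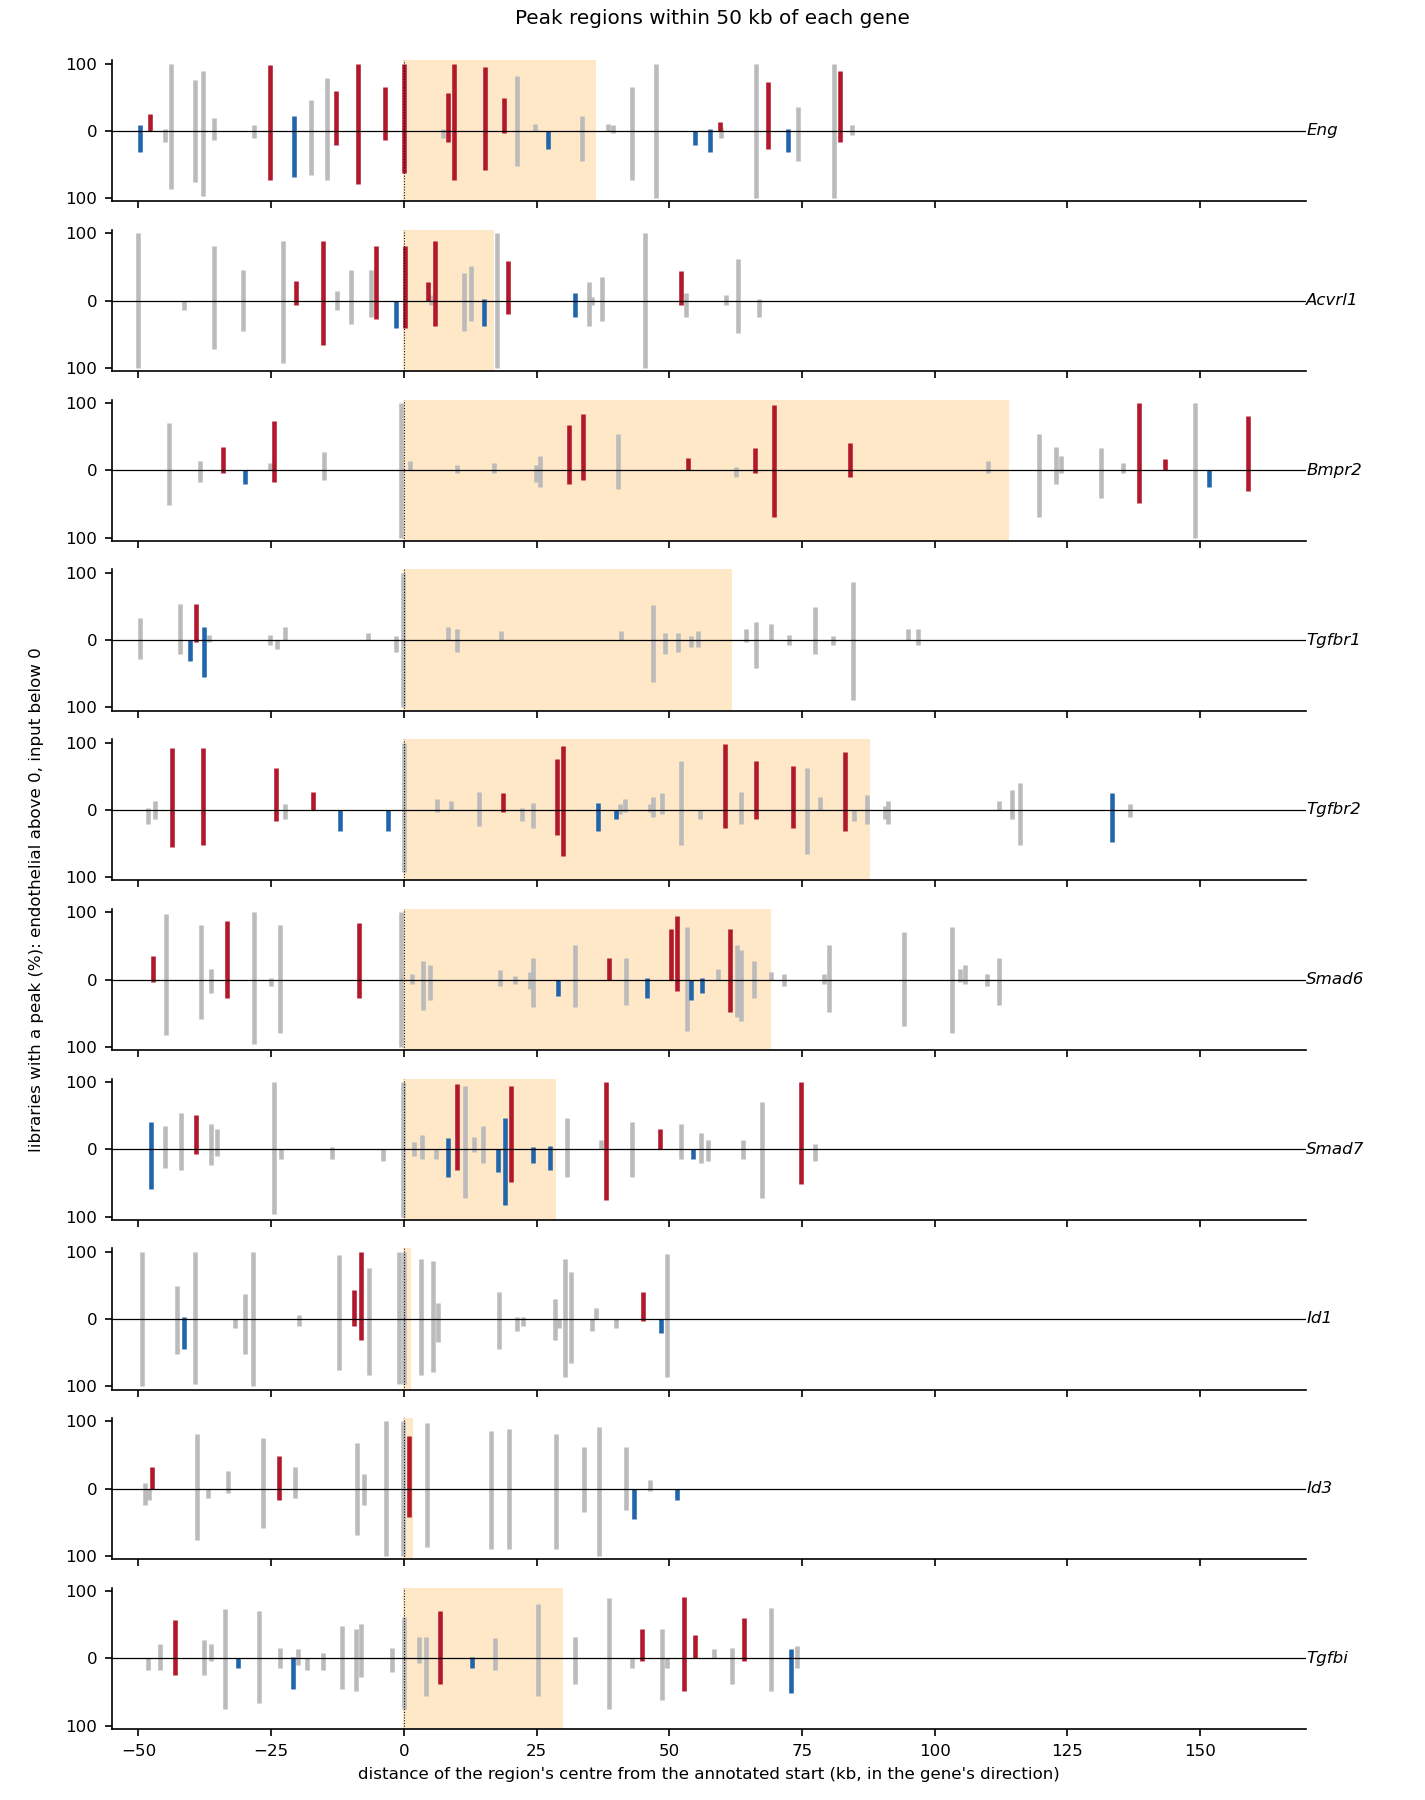
Share of libraries with a peak (%), in endothelial libraries above 0 and input below 0, for the 347 regions, by distance of the region's centre from the annotated start in kb. Coloured bars are regions past the adjusted p of 0.05. Regions present in most endothelial and few input libraries lie inside Smad6 and Tgfbr2 and upstream of Id1.

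Of the starts, only those of Eng and Acvrl1 were commoner in endothelial lists. The Eng start region, chr2:32646158-32647024, had a peak in 37 of 37 endothelial and 18 of 29 input lists (difference 40.6 percentage points within organ and age, adjusted p = 0.000959, exact test). The Acvrl1 start, chr15:101128426-101129264, had one in 30 and 12 (38.7 points, adjusted p = 0.00348), with 0 of 3 P6 retina lists and 2 in each other P6 organ; its call was lost with lists of equal length (adjusted p = 0.452, exact test). The regions over the starts of Bmpr2, Tgfbr1, Smad6, Smad7 and Id3 were open in 37 and 29 lists, Id1 in 37 and 28, and Tgfbr2 in 37 and 27.

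Starts were also counted as a peak within 500 bp over 17494 protein-coding genes. Eng (adjusted p = 0.00386) and Acvrl1 (0.0132) were again the 2 members commoner in endothelial lists by the exact test, and 0 were rarer. Within this narrower window Bmpr2 had a peak in 34 endothelial and 27 input lists and Smad6 in 37 and 27, fewer than for the whole regions over their starts. Of all genes 0.743% were higher and 3.46% lower. A start with a peak in all 66 lists was common, at 36.7% of genes.

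Eng had a further region that differed more than its start. At 82.1 kb from the start, inside the neighbouring gene Sh2d3c at chr2:32728447-32729031, a peak was present in 33 of 37 endothelial and 5 of 29 input lists (72.4 points, adjusted p = 5.29e-06, exact test). The 4 endothelial lists without it were both adult retina lists, 1 of adult lung and 1 of E12 heart. Acvrl1 had a region at 5.8 kb, chr15:101133920-101134776, inside the gene, in 33 and 11 lists (49.7 points, adjusted p = 0.000206, exact test).

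The other receptors had endothelial regions away from open starts. In Bmpr2 a region at 33.8 kb, chr1:59797573-59798506, was present in 31 endothelial and 4 input lists (adjusted p = 2.14e-05, exact test), but in 1 and 0 with lists of equal length. In Tgfbr2 a region at 60.6 kb, chr9:116114335-116115238, was present in 36 and 8 lists (72.4 points, adjusted p = 1.06e-05, exact test) and still in 26 and 0 with equal lists. For Tgfbr1 the only higher region lay at -39.1 kb, chr4:47313876-47314454, in 20 and 1 lists (adjusted p = 5.88e-05, exact test), and in 1 and 0 with equal lists.

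The inhibitory SMAD genes each held regions that were commoner in endothelial lists. Smad6 had one at 50.3 kb inside the gene, chr9:63971548-63971981, in 28 of 37 endothelial and 0 of 29 input lists (76.8 points, adjusted p = 3.42e-06, exact test). It was missing from all 4 E12 heart and both adult lung lists, and present in all 4 E12 trunk and all 3 E12 brain lists; with equal lists it was in 6 and 0 (adjusted p = 0.452, exact test). The next Smad6 region, at 51.4 kb and chr9:63970262-63971101, was in 35 and 5 lists (80.1 points, adjusted p = 3.71e-06, exact test), and the 2 lists without it were 1 of adult brain and 1 of E12 heart. Smad7 held one at 10.1 kb, chr18:75377070-75377874, in 36 and 9 lists (65.7 points, adjusted p = 2.42e-05, exact test).

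Among the targets, Id1 had a region that was open in every endothelial list. At -8.0 kb, chr2:152727854-152728602, a peak was present in 37 of 37 endothelial lists, all ages and organs, and in 9 of 29 input lists (71.7 points, adjusted p = 4.76e-06, exact test), and with equal lists in 25 and 3. For Id3 the region with the smallest p was one absent from endothelium: at 43.4 kb, inside E2f2, a peak was in 0 and 13 lists (-39.1 points, adjusted p = 0.000762, exact test). Just past its start, at 1.0 kb, a peak was in 29 and 12 lists (adjusted p = 0.00700, exact test).

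The Tgfbi start was open in fewer endothelial lists than that of any other of the 10 genes. The region over it, chr13:56609216-56609873, was in 23 of 37 endothelial and 22 of 29 input lists (-17.7 points, adjusted p = 0.131, exact test). Its region at 64.0 kb, chr13:56673039-56674113, was in 22 and 1 lists (adjusted p = 0.000138, exact test), present in 10 of 11 E12, 9 of 14 P6 and 3 of 12 adult endothelial lists, and in 4 and 0 with equal lists.

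**Figure D4:**
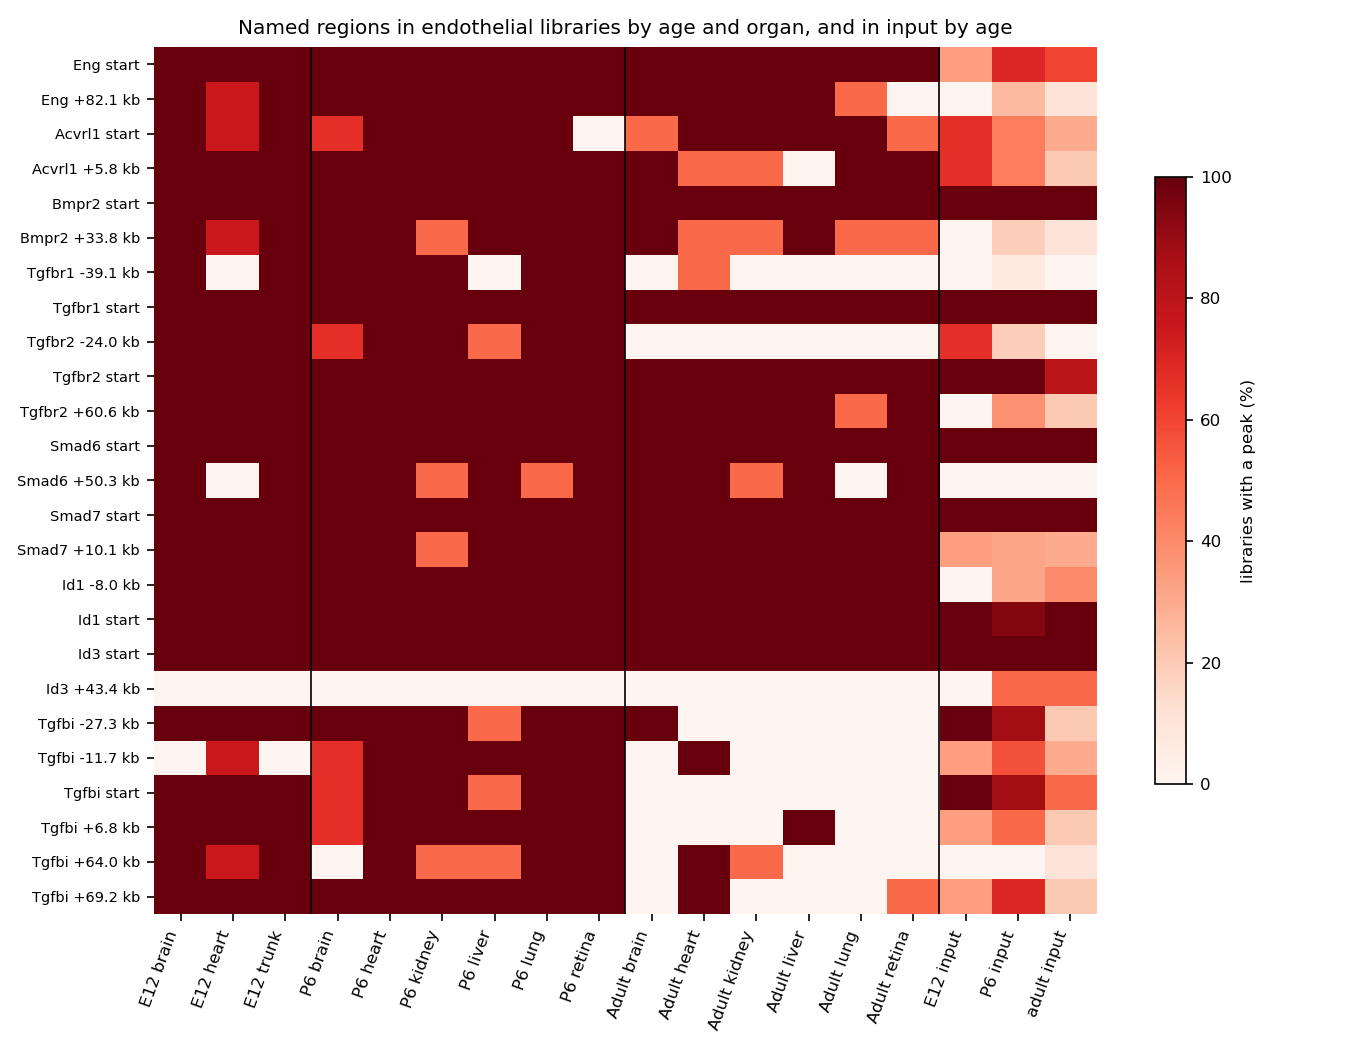
Percentage of libraries with a peak at each named region (rows, gene and distance from the start in kb), in endothelial libraries by age and organ and in input by age (columns). The Tgfbi start and the Tgfbr2 region at -24.0 kb are empty in all 12 adult endothelial libraries and filled in all 11 of E12, and the Smad6 region at 50.3 kb is empty in input.

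With age after birth, 0 of the 347 regions were commoner in adult than in P6 endothelium and 7 were rarer (2.02%), where 0% and 0.988% of all regions were (exact test within organ, 26 libraries). Unadjusted at 0.05, 0 of the 347 were commoner and 68 rarer, where 0.0641% and 11% of all regions were. Of the 7, 5 lay at Tgfbi (-27.3, -11.7, 6.8 and 69.2 kb and the start), 1 at Tgfbr2 and 1 at Tgfbr1. The Tgfbi start was open in 0 of 12 adult, 12 of 14 P6 and 11 of 11 E12 endothelial lists (-85.9 points adult against P6, adjusted p = 0.0334, exact test), while adult input had it in 5 of 10 and P6 input in 14 of 16. The 2 P6 lists without it were 1 of brain and 1 of liver. The adult lists of each of the 6 organs lacked it. With lists of equal length it was in 0 of 37 endothelial lists, those of P6 and E12 included, and in 1 of 29 input lists.

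The Tgfbr2 region at -24.0 kb, chr9:116199001-116199781, had the same counts in endothelium, 0 of 12, 12 of 14 and 11 of 11, with 0 of 10, 3 of 16 and 2 of 3 in input (adjusted p = 0.0334, exact test). The Tgfbr1 region at -39.1 kb was in 1 of 12 adult, 12 of 14 P6 and 7 of 11 E12 lists (-76.6 points, adjusted p = 0.0334, exact test). Adult endothelial lists held 19464 to 47334 peaks and those of P6 27160 to 92863, and the part of list length was not tested. With equal lists, a stricter peak limit or a stricter overlap, 0 of the 7 calls were left. Leaving out 1 library gave 0 to 12 calls. They fell to 0 without adult heart 1, adult kidney 1, adult lung 2, either adult retina list, P6 heart 1, P6 kidney 1, P6 lung 1 or any P6 retina list, and to 2 or 3 without adult brain 1, adult heart 2, P6 heart 2 or P6 lung 2, and reached 12 without P6 brain 1. At the level of gene starts, Tgfbi missed the limit (unadjusted p = 0.000139, adjusted p = 0.0579, exact test), and 0% of genes passed after adjustment.

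Between P6 and E12 endothelium of brain and heart (12 libraries) 0 regions of the genes and 0% of all passed the exact test, whose smallest possible p there is 0.00333; unadjusted at 0.05, 9 of 347 were commoner at P6 and 9 rarer, where 0.640% and 3.14% of all regions were. These counts do not show that the ages were alike.

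Between organs, retina was set against the other 5. Near the genes 23 regions were commoner in retina (6.63%), where 7.68% of all regions were, so this share was no higher than over the genome, and 2 were rarer (0.576%), where 0.0887% of all were (exact test within age). A region of Smad6 at 18.2 kb, one of Tgfbi at -20.0 kb and one of Acvrl1 at -12.6 kb were each present in 5 of 5 retina and 0 of 21 other endothelial lists (adjusted p = 0.00196, exact test). The same regions were open in 3, 3 and 4 of 5 retina input lists, which hold endothelial nuclei among those of other cells.

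Of the 25 retina calls, 2 rarer and 7 commoner in retina endothelial lists lay before the starts of Eng and Acvrl1. The share of such regions over all genes was not counted, so these numbers are not a result about the 2 genes. Within 50 kb lie 7 other protein-coding genes at Eng and 3 at Acvrl1. Which gene a region serves was not tested. The commoner lay at -49.7, -28.3 and -20.7 kb of Eng and at -30.3, -12.6, -9.9 and -6.2 kb of Acvrl1. All 7 were open in retina input too, in the same order in 4, 3 and 5 and in 5, 4, 3 and 4 of 5 lists. Of the rarer, Eng at -12.7 kb, chr2:32633640-32634058, was in 0 of 5 retina and 17 of 21 other endothelial lists (adjusted p = 0.0366, exact test), and Acvrl1 at -15.2 kb, chr15:101112872-101113722, in 2 of 5 and 21 of 21 (adjusted p = 0.0422, exact test). With equal lists 2 were higher (1.21% of all regions) and 1 lower (0.106%), and 1 of the 25 calls was kept; leaving out any 1 of the 3 P6 retina lists left 6. Both regions rarer in retina lost their call without any single retina list, at adult or P6, while the regions of Smad6 at 18.2 kb, Tgfbi at -20.0 kb and Acvrl1 at -12.6 kb were called in all 5 such runs.

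Near the 10 genes, brain, heart, kidney, liver and lung each had 0 regions past the exact test after adjustment, in either direction. Of all regions 0.108% were commoner in brain, 0.542% in liver and 0% in heart, kidney and lung, and 0.00685% were rarer in liver and 0% in the other 4. Unadjusted at 0.05, brain had 14 of 347 commoner and 12 rarer, where 5.84% and 1.61% of all regions were. Heart had 19 and 0 (4.08% and 0.186% of all regions), and kidney 2 and 4 (1.69% and 0.405%). Liver had 23 and 7 (4.72% and 1.12%) and lung 12 and 3 (2.73% and 0.539%). With 4 or 5 libraries of an organ against 21 or 22 others, these counts do not show that the organs were alike.

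The authors' fold at the start peak, which sets a peak against the background of its own library, was used to rank peaks within a list. Tgfbr1 had a fold of 3.87 at its lowest, 6.32 at the median and 8.26 at its highest over 37 endothelial lists, a median percentile of 89.5 within the list. In 29 input lists it had a median fold of 5.90 and percentile of 91.1. Eng had a median of 4.12 (2.81 to 5.37) and percentile of 59.3 in 37 endothelial lists, and a percentile of 38.2 in the 18 input lists with a peak. Acvrl1 had a median of 3.17 (2.23 to 4.17) and percentile of 19.0 in the 30 endothelial lists with a peak at its start, and a percentile of 8.21 in 12 input lists; lists without a peak have no value. The ranks of endothelial and input lists were not tested against each other.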

How the data were processed

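The genes, gene lists and comparisons were chosen with earlier results of these data known. Per the file headers, the authors called ATAC-seq peaks with MACS2 in broad mode in each library separately, without a control; the deposited lists give per peak a signal (pileup, not scaled between libraries), a fold (ratio over the local background of that library) and −log10 of p and q. The submitters' processing notes name Bowtie2, SAMtools 1.13, Picard, MACS2, DiffBind 3.2, R 4.1, Cell Ranger, Seurat 4.0.4 and mm10, without roles. The deposited single-cell files hold the authors' UMI counts per gene and barcode. Gene positions came from RefSeq GRCm38.p6; the strand of Acvrl1, Smad7 and Id1 was taken as known. The nuclear RNA-seq files were not used here.

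Peaks of all lists were merged into regions covered in at least 4 lists. Presence was compared with an exact conditional test within organ and age (or organ, or age), adjusted by Benjamini-Hochberg, threshold 0.05. The scripts were tested on simulated data. UMIs were summed over endothelial barcodes per library, as UMI counts per 1000000 (CPM) with 95% exact Poisson intervals; for shares, barcodes were thinned to 1000 UMIs, which 5632, 6347, 3786, 4747 and 3096 endothelial barcodes held. Named regions were, for each gene, that over the start and that with the smallest p of endothelial against input, and up to 3 called regions per other comparison; for the pathway list, up to 4 genes per comparison past 2-fold with the largest fold; 1 gene that this rule names is not reported here. The Id3 region at 1.0 kb and the Smad6 region at 51.4 kb were named after their values were seen. So were the adult against P6 and retina calls beyond 3 in each comparison. Python 3.11.15, numpy 2.4.6, pandas 2.3.3, scipy 1.17.1 and matplotlib 3.10.9 were used. Alternatives tried were lists of equal length, a −log10 q of 5, 50% coverage, 8 lists, a window of 20 kb, strata of read processing, a replicate block, leaving out each library, other barcode gates and weights. In the comparisons between organs, only libraries of the organ set against the others were left out.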

Additional observations from a re-analysis of the deposited data

Results flagged for a closer look

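In the groups of 4 libraries, E12 heart and E12 trunk, the number of peaks near each gene was checked for a library far from the other 3, over 22 sets of which 10 met Dixon's criterion; chance flags about 1 in 20. Of these, 8 came from 1 list, replicate 3 of E12 heart endothelium, and 1 of the 8 is the total over the genes. They are thus not 8 separate results. That list was short, with 39096 peaks from 10139100 tags, beside 101219 to 120456 peaks in the other 3. The part of list length was not tested. Replicate 3 held 4 peaks near Bmpr2 (18 to 19 in the others), 12 near Eng (24 to 26), 8 near Smad6 (25 to 27), 7 near Smad7 (20 to 21), 10 near Tgfbi (22 to 24), 3 near Tgfbr1 (14 to 15), 7 near Tgfbr2 (17 to 18) and 71 near the 10 genes together (192 to 202). In E12 trunk, replicate 2 held 15 peaks near Id3 (17 in each other) and replicate 4 held 15 near Tgfbr1 (8 to 9).

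For 12 of 347 regions, every endothelial list of an organ and age had a peak and every input list lacked it, while elsewhere the reverse held. These differences were not tested. How often this happened over all regions was not counted, so the number is not a result about these genes. Those present in endothelium of adult liver and reversed in adult lung were Eng at 43.0 kb, Tgfbr1 at 84.6 kb, Tgfbr2 at 14.1 kb and Tgfbr2 at 28.9 kb, the last also in adult kidney. Id1 at 3.3 kb was present in adult retina and reversed in adult liver and lung. Smad6 at 94.2 kb was present in P6 brain and reversed in P6 kidney, and Smad6 at 80.1 kb in P6 liver and reversed in adult lung. Tgfbi at -37.7 kb was present in P6 heart and reversed in P6 liver, and in P6 heart and reversed in P6 lung were Tgfbi at -23.3 kb, Acvrl1 at 37.4 kb and Smad7 at 30.8 kb. Smad7 at -45.0 kb was present in P6 brain and reversed in P6 heart and adult lung. Adult lung was a reversed group in 7 of the 12, and adult lung endothelial replicate 2 is the shortest of all, with 19464 peaks.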

How the results depend on the processing

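Of the 347 regions, 106 differed between endothelial and input lists: with lists of equal length 37, at a −log10 q of 5 or more 60, within 20 kb 61, and leaving out each library 95 to 109. Of the 106 calls, 28 were kept with equal lists, 47 at the stricter q, 94 with 50% coverage and 101 within strata of read processing; 1 turned direction at the stricter q (Tgfbr1 at -37.6 kb, 3.31 points, adjusted p = 1, exact test). Adult against P6 gave 7: 0 with equal lists, at the stricter q or with 50% coverage, 16 with regions in 8 lists, 3 within 20 kb and 0 to 12 leaving out a library. Retina gave 25: 3, 5 and 16 with equal lists, the stricter q and 20 kb, and 6 to 22 leaving out 1 of the 5 retina lists. Lists of the other organs were not left out in that comparison. Liver gave 0, and 2 with equal lists. These counts of regions near the genes stand without the share of all regions, so they are not a result about the genes. The 20 kb window changed no p-value and counted fewer regions, so its lower counts are not calls lost. Gene starts in adult against P6 gave 0, 1 with 1000 bp and 0 to 1 leaving out a library. The replicate block gave 33 for endothelial against input, 0 for adult against P6, 4 for retina and 0 for gene starts (2 without it). Over 20 same-numbered pairs the correlation of deviations was -0.162 to 0.186, and 4 were over 0.1. Groups of 2 endothelial and 2 input lists give both pairs the same value, as in adult retina (0.113), so the 20 are not all separate. The numbers were not taken as pairing, and this check does not exclude it. In single cells, E12.5 against E9.5 gave 4 and 2 without haemoglobin, mitochondrial and ribosomal protein genes; P8 against E16.5 gave 1 and 2 with at most 5% mitochondrial UMIs, with barcodes weighted equally or without the CPM minimum. With equal lists, 1 adult against P6 call (Tgfbi at -11.7 kb, 15.6 points) and 1 retina call (Id1 at -42.8 kb, -4.14 points) also turned direction, each with an adjusted p of 1 by the exact test.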

Other observations

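At 1000 UMIs per barcode, Id3 was detected in 42.5% of E9.5 barcodes with an Id1 UMI and 32.2% of those without, in 70.2 and 50.5% at E12.5, 70.4 and 59.0% at E16.5, 70.1 and 53.7% at P8, and 76.1 and 69.6% in the adult. The share was higher with Id1 in 5 of 5 libraries. Acvrl1 was detected in 7.18% of E9.5 barcodes with an Eng UMI and 6.69% of those without, in 10.6 and 9.37% at E12.5, 21.4 and 18.1% at E16.5, 13.9 and 12.5% at P8, and 40.8 and 41.5% in the adult, so the share was higher with Eng in 4 of 5 libraries. Id1 was detected in 15.0% of E9.5 barcodes with a Bmpr2 UMI and 14.3% of those without, in 17.0 and 14.1% at E12.5, 45.1 and 35.7% at E16.5, 45.7 and 35.7% at P8, and 74.0 and 72.9% in the adult. For Smad7 with and without a Smad6 UMI, the shares were 12.1 and 4.00% at E9.5 and 4.55 and 2.57% at E12.5. They were 19.6 and 9.21% at E16.5, 24.4 and 13.1% at P8, and 23.3 and 22.9% in the adult. No intervals were computed and no other gene pairs were counted, so all these shares are a description.

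Peaks near the 10 genes numbered 69 to 126 in adult endothelial lists (median 98.5) and 71 to 204 at E12 (median 192). Per 10000 peaks of the list the order turned, with medians of 27.8 in adult and 19.0 in E12 endothelium. Input turned likewise, from medians of 101 peaks in adult and 142 at E12 to 18.7 and 11.8 per 10000.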
